A study of Mus musculus with 26 samples.

Results

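Bahcc1, Tnrc18, Bcor, Hic2 and Nup98 are 5 of the 23107 genes in a count table of ribosome-bound and remaining RNA from the mouse preoptic area. They were picked by name, with earlier results of these data known, as chromatin, corepressor and nuclear pore genes with high counts in the pull-down of GnRH neurons. Enrichment in the pull-down, and the way each gene scaled with Gnrh1 across the library numbers, entered that choice and are therefore given as descriptions without a test. The tests below concern gonadectomy and sex. All pools with early library numbers were intact, so the gonadectomy differences in the pull-down, and those in enrichment, draw on values that entered the choice.

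All mice carried the same genotype, GnRH CRE x Floxed L10a-GFP, in which Cre recombinase switches on the ribosomal protein L10a fused to GFP. Cre is expressed in GnRH neurons, the cells that release gonadotropin-releasing hormone. Tagged ribosomes were pulled down from punches of the preoptic area of adults aged 55 to 165 days (translating ribosome affinity purification), so each pool of 5 to 7 mice gave an immunoprecipitate, enriched for GnRH neurons, and a supernatant, depleted of them. The 13 pools were 3 of intact females in diestrus, 3 of ovariectomized females, 4 of intact males and 3 of orchidectomized males. The tag reaches the cells in which Cre was active, and a pool is a mean over its animals. In such bulk RNA, fewer cells of a type and less RNA per cell cannot be told apart.

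Chromatin repressors act through modified histones. BAHCC1 carries a BAH domain that reads histone H3 methylated at lysine K27, and its paralog TNRC18 carries one that reads H3 methylated at K9. BCOR is a corepressor of BCL6 and a subunit of a variant Polycomb repressive complex, HIC2 is a zinc finger repressor with a BTB domain, and NUP98 is a nucleoporin with FG repeats that also binds chromatin away from the pore. The 5 genes lie apart in the genome (GENCODE M21 on mm10): Bahcc1 on chromosome 11 at chr11:120232947-120292296 (plus strand), Tnrc18 at chr5:142724661-142817662 (minus), Bcor at chrX:12036740-12160355 (minus), Hic2 at chr16:17233572-17263430 (plus) and Nup98 at chr7:102119398-102210176 (minus). Bahcc1 overlaps an antisense gene, Gm11772, and a microRNA gene, Gm47297. Hic2 overlaps Gm49573 on its own strand and Gm26635 on the other. None of these 4 has a row of its own in the deposited table, and the library kit does not mark strand, so reads of the overlapping stretches cannot be assigned to one gene.

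Promoter windows are shown as a description, and no shared regulation is read from them. Each window holds the 250 bases before a RefSeq start site (GRCm38.p6) and is printed 5′ to 3′ on the gene's strand. Capitals mark 3 motifs, searched on both strands: the CCAAT box, the GC box with the letters GGGCGG, and the cyclic AMP response element TGACGTCA. A match on the opposite strand is printed as its reverse complement.
Bahcc1: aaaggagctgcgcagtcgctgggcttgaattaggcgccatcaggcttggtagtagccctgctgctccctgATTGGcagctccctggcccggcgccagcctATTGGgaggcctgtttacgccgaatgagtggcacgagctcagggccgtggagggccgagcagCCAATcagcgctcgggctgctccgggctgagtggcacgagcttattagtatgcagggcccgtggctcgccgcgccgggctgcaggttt
Tnrc18: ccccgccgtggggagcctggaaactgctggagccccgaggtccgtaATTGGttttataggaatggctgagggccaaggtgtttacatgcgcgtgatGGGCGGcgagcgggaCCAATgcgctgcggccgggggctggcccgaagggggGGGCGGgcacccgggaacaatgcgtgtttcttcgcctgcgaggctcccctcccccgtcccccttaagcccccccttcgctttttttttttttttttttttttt
Hic2: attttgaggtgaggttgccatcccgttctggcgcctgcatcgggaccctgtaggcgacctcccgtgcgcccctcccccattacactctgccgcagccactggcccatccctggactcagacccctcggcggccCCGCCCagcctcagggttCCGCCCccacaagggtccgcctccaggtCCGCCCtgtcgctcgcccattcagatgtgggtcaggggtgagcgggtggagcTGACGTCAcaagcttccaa
Nup98: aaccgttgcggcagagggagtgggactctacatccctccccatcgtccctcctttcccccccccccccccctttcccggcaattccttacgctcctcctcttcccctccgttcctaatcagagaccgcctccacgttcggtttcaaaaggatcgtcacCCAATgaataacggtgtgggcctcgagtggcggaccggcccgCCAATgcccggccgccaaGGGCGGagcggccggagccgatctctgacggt
The windows are chr11:120232697-120232946 for Bahcc1, chr5:142817663-142817912 for Tnrc18, chr16:17233337-17233586 for Hic2 and chr7:102210167-102210416 for Nup98. CCAAT occurred 3 times before Bahcc1, 2 times before Tnrc18 and 2 times before Nup98, and 34.5% of 27025 RefSeq promoter windows of this length held it. GGGCGG occurred 2 times before Tnrc18, 3 times before Hic2 and once before Nup98 (32.9% of windows). Of the 5, Hic2 alone had TGACGTCA, from 19 to 12 bases before its start (1.62% of windows). TAATCC, the letters bound by OTX proteins, the octamer ATGCAAAT and the E-box CACGTG were in none of the 5 windows, and are in 6.38%, 1.61% and 6.05% of all windows. The Bcor window (chrX:12160356-12160605) held none of the 6 motifs. The search is a description of letters and shows no binding. All 5 windows were rich in G and C, from 60.8% before Bcor to 67.2% before Hic2, where the median of all windows was 52.0%.

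Library totals ran from 27217253 to 56668582 estimated counts. The labels number the libraries, and they do not say that the numbers mark a date or batch. The 4 pools with numbers 1 to 10 were all intact and held 6 or 7 mice. The 9 with numbers 11 to 30 were 3 intact pools of 5 mice and the 6 gonadectomized pools, so number, gonadectomy and pool size cannot be fully told apart. All 3 gonadectomized female pools held 7 mice and all 3 gonadectomized male pools 5, so pool size and sex cannot be told apart there. By edgeR's quasi-likelihood test at an adjusted p under 0.05, 21.3% of all genes tested were called higher in the immunoprecipitate and 21.6% lower. Markers of oligodendrocytes were called lower for 11 of 12 genes, those of astrocytes for 7 of 10 and those of microglia for 6 of 10. No gene of these lists was called higher. Endothelial and mural markers were called higher for 4 of 12 (33.3%) and lower for 1 (8.33%). Their values were uneven over the pools. Cldn5, which was called higher, reached 63.7 CPM (CPM, counts scaled to the effective library size) in the immunoprecipitates, where its median was 6.98 CPM. Its median in the supernatants was 5.03 CPM. For ependymal, choroid plexus and meningeal markers the counts were 1 and 3 of 12 (8.33% and 25%). For pan-neuronal markers they were 1 and 5 of 10 (10% and 50%, Stmn2 higher, Thy1 lower). Of the listed genes, Kcne2 of the choroid plexus was at 0 in 11 of 13 immunoprecipitates and Folr1 in 8 of them. One pool stood apart. In intact female replicate 2, Gnrh1 was 1579 CPM in the supernatant, against 47.5 to 454 CPM in the other 12, and its immunoprecipitate was only 2.01-fold higher. Differences that turned in direction without this pool are given with and without it.

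Levels of the 5 genes in the pull-down spanned a wide range. Per kilobase of the longest annotated transcript, Tnrc18 was the most abundant in the immunoprecipitates (170 ± 57 CPM per kb, SD, n = 13 pools), followed by Bahcc1 (52.6 ± 17.8), Bcor (47.1 ± 21), Nup98 (27.8 ± 12.8) and Hic2 (11.2 ± 5.52). The lowest Tnrc18 pool, at 85.7 CPM per kb, lay above every pool of Bahcc1, Nup98 and Hic2 and below the highest Bcor pool, at 92.7. Bahcc1 and Bcor, Bahcc1 and Nup98, Bcor and Nup98, and Nup98 and Hic2 overlapped in their ranges over the pools. In the supernatants all 5 were low on the same scale, from 1.16 ± 0.256 CPM per kb for Hic2 to 5.94 ± 3.21 for Tnrc18. All 5 have long transcripts, from 6354 bases for Hic2 (percentile 88.3 of 15000 genes with a length) to 10726 for Bahcc1 (percentile 98.1), whereas the longest Gnrh1 transcript has 486 bases.

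**Figure D1:**
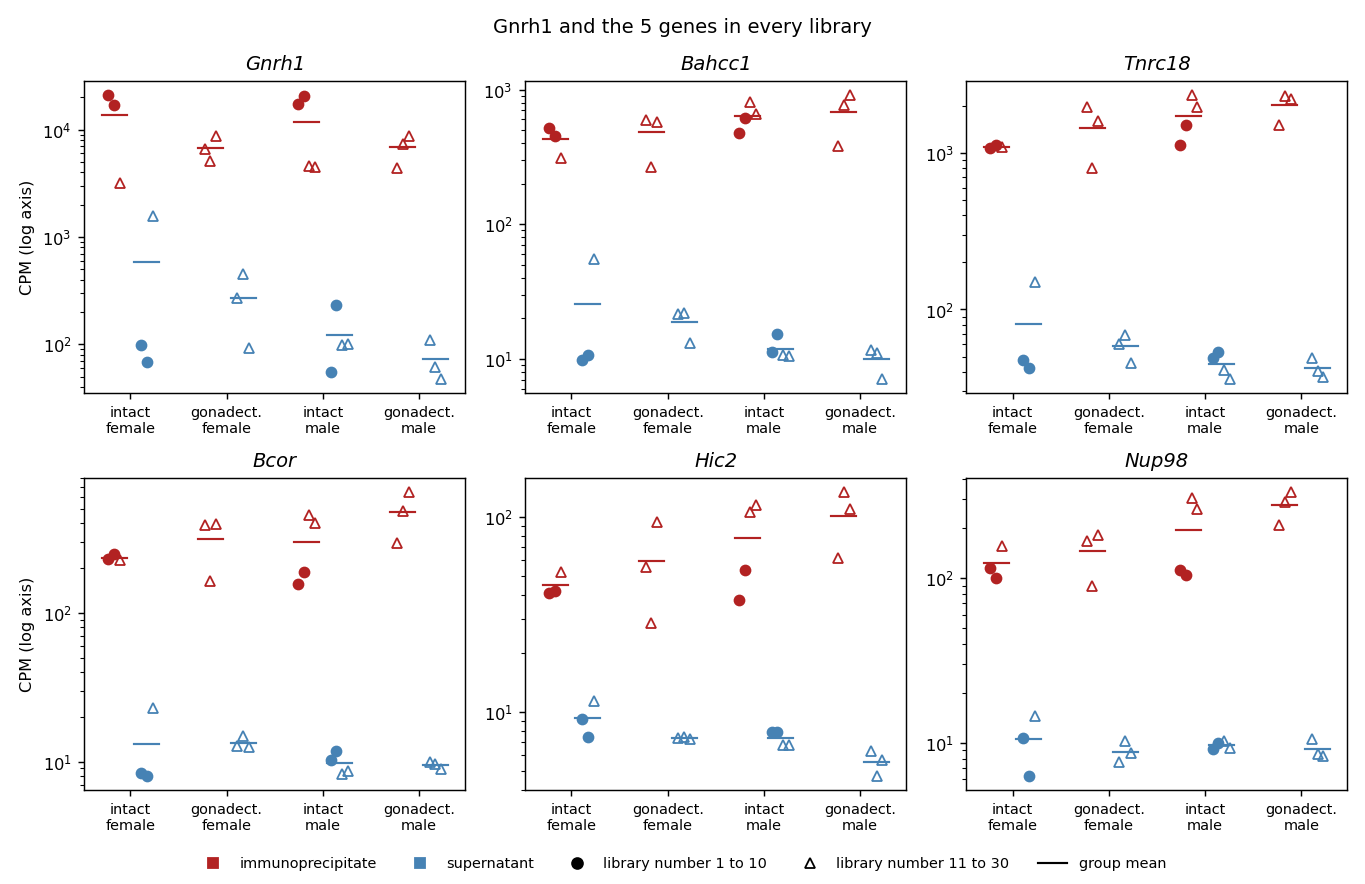
CPM of Gnrh1 and the 5 genes (log axes, a different range in each panel) in all 26 libraries, by sex and gonadectomy, with red for immunoprecipitates and blue for supernatants. Library numbers 1 to 10 are filled circles, later ones open triangles, and each group's mean is a bar. Every immunoprecipitate lies above every supernatant for each of the 5 genes, and intact female replicate 2 has the highest supernatant value in each panel.

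Among the histone readers, Bahcc1 showed the highest fold in the pull-down. Its immunoprecipitates stood at 519.9, 449 and 312 CPM in intact female replicates 0, 1 and 2, and at 598, 267 and 575.5 CPM in gonadectomized female replicates 0, 1 and 2. In males it stood at 475, 619, 804 and 655 CPM in intact replicates 0 to 3, and at 384, 768 and 908 CPM in gonadectomized replicates 0 to 2. The 4 conditions overlapped, gonadectomized female replicate 1 was lowest, and gonadectomized male replicate 2 was highest. Supernatants ran from 7.09 to 21.9 CPM in 12 pools and reached 55.7 CPM in intact female replicate 2. The fitted difference between fractions was 5.15 ± 0.26 on the log2 scale (SE over 26 libraries, 35.4-fold), with the immunoprecipitate higher in 13 of 13 pools. Without intact female replicate 2, whose own fold was 5.59, it was 5.54.

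Tnrc18, the paralog, had the highest counts of the 5. Female immunoprecipitates held 1076, 1131 and 1090 CPM in intact replicates 0 to 2 and 1971, 801 and 1595 CPM in gonadectomized replicates 0 to 2. Male ones held 1128, 1509, 2347 and 1963 CPM in intact replicates 0 to 3 and 1507, 2337 and 2233 CPM in gonadectomized replicates 0 to 2. Intact females were the tightest group, and gonadectomized female replicate 1 was again lowest. In the supernatants Tnrc18 ran from 35.8 to 69.0 CPM in 12 pools, with 150.5 CPM in intact female replicate 2. The log2 difference between fractions was 4.82 ± 0.20 (28.3-fold, 13 of 13 pools), and 5.05 without that pool.

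Bcor, the Polycomb-linked corepressor on the X chromosome, had 229, 246 and 224.5 CPM in the immunoprecipitates of intact female replicates 0 to 2 and 387, 162 and 392 CPM in gonadectomized female replicates 0 to 2. Intact male replicates 0 to 3 had 157, 187, 450.3 and 397 CPM, and gonadectomized male replicates 0 to 2 had 294, 480.3 and 643.5 CPM. Among intact males, both pools with early numbers lay below both pools with later ones. Supernatants ran from 7.99 to 14.9 CPM in 12 pools, with 22.9 CPM in intact female replicate 2. The log2 difference between fractions was 4.82 ± 0.22 (28.2-fold, 13 of 13 pools), and 5.01 without that pool.

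Hic2, the zinc finger repressor, was the least abundant and the least enriched of the 5. Its immunoprecipitates had 41.0, 41.7 and 52.3 CPM in intact female replicates 0 to 2 and 55.1, 28.6 and 94.6 CPM in gonadectomized female replicates 0 to 2. Males had 37.7, 53.1, 106 and 114.5 CPM in intact replicates 0 to 3 and 61.5, 134 and 109 CPM in gonadectomized replicates 0 to 2. Intact males again fell into a lower and a higher pair by library number. Supernatants ran from 4.69 CPM in gonadectomized male replicate 1 to 11.3 CPM in intact female replicate 2. The log2 difference between fractions was 3.22 ± 0.19 (9.32-fold, 13 of 13 pools), with 2.47 in the pools numbered 1 to 10 and 3.36 in the later ones.

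Nup98, the nucleoporin, had 115, 99.3 and 157 CPM in the immunoprecipitates of intact female replicates 0 to 2 and 168, 89.9 and 182 CPM in gonadectomized female replicates 0 to 2. Intact male replicates 0 to 3 had 111, 104, 307 and 262 CPM, and gonadectomized male replicates 0 to 2 had 208, 289 and 331 CPM. Its 4 pools with early numbers were the most uniform of any member, at 107 ± 7.14 CPM (SD). Supernatants ran from 6.27 to 14.5 CPM. The log2 difference between fractions was 4.22 ± 0.19 (18.6-fold, 13 of 13 pools), with 3.63 in the pools numbered 1 to 10 and 4.32 in the later ones. Of 16713 genes tested, 21.3% were called higher in the immunoprecipitate by edgeR's quasi-likelihood test at an adjusted p under 0.05. Since the 5 were chosen on this contrast, nothing is read from their place in it.

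Gnrh1 was lower in pools with later library numbers, and none of the 5 genes was. In the immunoprecipitates Gnrh1 averaged 18980 ± 2130 CPM (SD, n = 4) in the pools numbered 1 to 10 and 5924 ± 2026 CPM (n = 9) in the later ones, with all later pools lower, a difference of -1.75 on the log2(CPM + 0.5) scale. On that scale the later pools differed from the early ones by 0.08 for Bahcc1, 0.47 for Tnrc18, 0.82 for Bcor, 0.82 for Hic2 and 0.94 for Nup98, where the median of all tested genes was 0.07. Bahcc1 thus sat at percentile 50.8 of all genes, Tnrc18 at 77.2, Bcor at 90.1, Hic2 at 90.2 and Nup98 at 93.0. The early and later pools overlapped for each of the 5. For Nup98 the overlap came from 1 pool, gonadectomized female replicate 1 (89.9 CPM), as the other 8 later pools had 157 CPM or more and the early ones at most 115 CPM. Across all genes, 2.94% had every later pool higher and 7.53% every later pool lower. The 8 other genes that earlier results listed as high in the pull-down, among them Epcam, Otx1 and Six6, all differed in the direction of Gnrh1. Their differences ran from -0.47 for Ccdc68 (percentile 14.4 of all genes) to -1.46 for Epcam (percentile 0.153). Every later pool was lower only for Tstd1, and early and later pools overlapped for the rest of the 8.

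**Figure D2:**
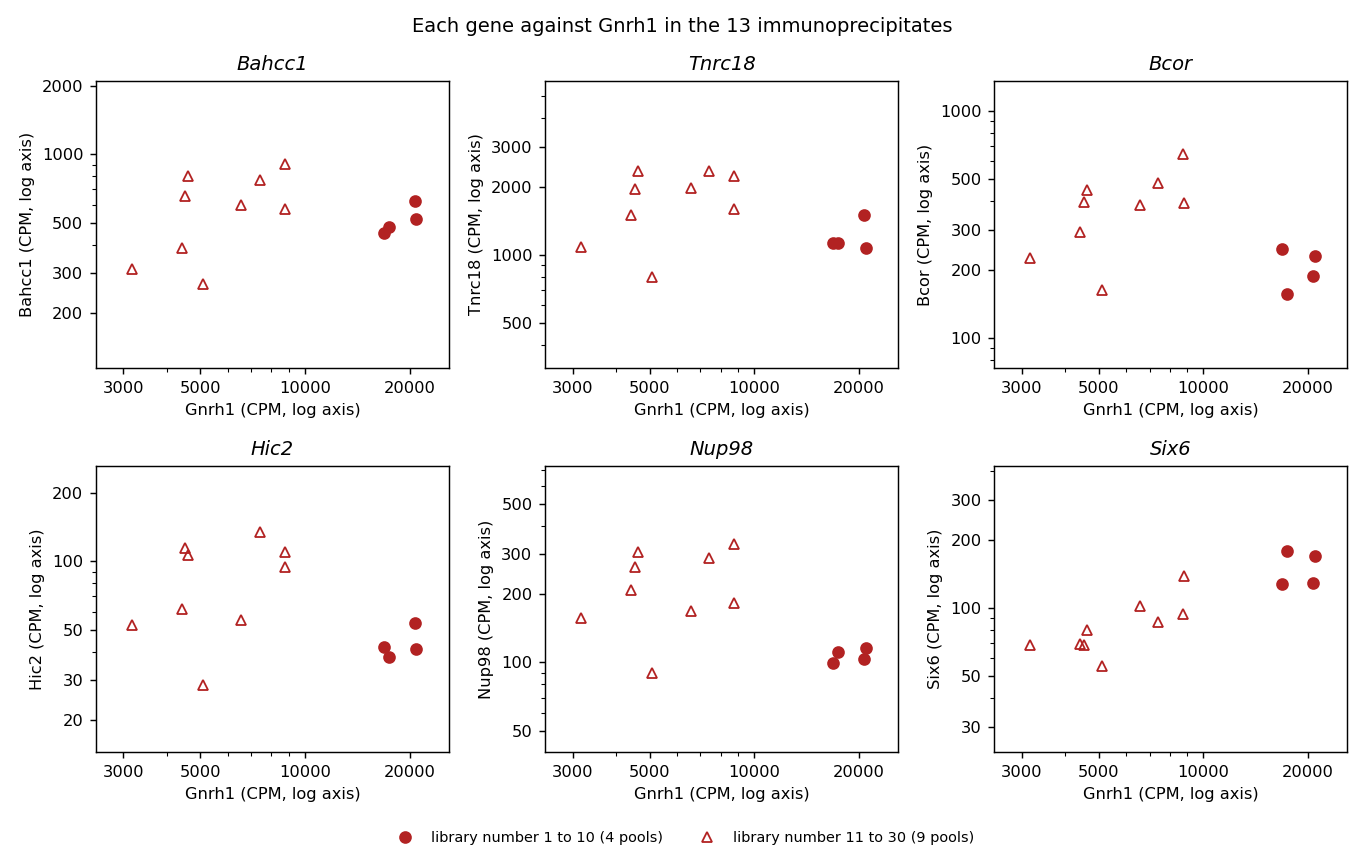
CPM of each of the 5 genes, and of the homeobox gene Six6 for comparison, against Gnrh1 CPM in the 13 immunoprecipitates (both axes logarithmic), with filled circles for library numbers 1 to 10 and open triangles for 11 to 30. The 4 early pools lie at 16900 to 20930 CPM of Gnrh1. The highest value of each of the 5 genes is in a later pool and that of Six6 in an early one, and early and later pools overlap in every panel (Six6 127 to 178 and 55.4 to 139 CPM).

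Intact pools alone, 4 early and 3 later, gave differences of the same sign. Gnrh1 differed by -2.22 on the log2 scale, Bahcc1 by 0.10, Tnrc18 by 0.51, Bcor by 0.76, Hic2 by 0.99 and Nup98 by 1.12 (median of all genes 0.07). Nup98 was higher in all 3 later intact pools (157 to 307 CPM) than in the 4 early ones (99.3 to 115 CPM). Every later intact pool was higher for 12.2% of all genes and lower for 14.4%. The early intact pools held 6 or 7 mice and the later ones 5, and the part of pool size was not tested. Summed markers of other cells did not separate the numbers cleanly in the immunoprecipitates. Oligodendrocyte markers summed to 1311 to 1510 CPM in early pools and 1411 to 2105 CPM in later ones, astrocyte markers to 918 to 945 CPM and 900 to 2742 CPM, microglial markers to 65.3 to 102 CPM and 45.6 to 111 CPM, endothelial and mural markers to 33.4 to 103 CPM and 39.2 to 338 CPM, and ependymal, choroid plexus and meningeal markers to 64.8 to 106 CPM and 60.3 to 175 CPM. Their part in the difference was not tested.

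Set against Gnrh1 within each pull-down, the 5 genes took up separate ranges by library number. Per 1000 CPM of Gnrh1, Bahcc1 stood at 24.8 to 29.9 CPM in the early pools and 52.5 to 174 CPM in the later ones. The same ratio was 51.4 to 72.9 and 157 to 508.5 for Tnrc18, 9.03 to 14.6 and 31.9 to 97.5 for Bcor, 1.96 to 2.57 and 5.61 to 25.3 for Hic2, and 5.02 to 6.39 and 17.6 to 66.5 for Nup98. No range of early pools overlapped that of later pools. The same was true, with all later pools higher, of 59.0% of all other genes tested, so nothing particular to the 5 is read from it. The denominator, Gnrh1, itself separated the pools, so these ratios restate its difference together with that of each gene.

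Within the 9 later immunoprecipitates each of the 5 genes was only loosely tied to Gnrh1. Pearson's r of log2(CPM + 0.5) with Gnrh1 was 0.59 for Bahcc1 (Spearman's rho 0.42), 0.45 for Tnrc18 (0.38), 0.62 for Bcor (0.52), 0.41 for Hic2 (0.33) and 0.28 for Nup98 (0.28). Without the 2 pools farthest from the median of Gnrh1, r was 0.52, 0.47, 0.48, 0.26 and 0.17 in the same order. The 8 other genes high in the pull-down had r of 0.75 (Six6 and Epcam) to 0.86 (Tstd1) over the same 9 libraries, and of 0.48 (Rab25) to 0.83 (Cldn9) without the 2 pools, a range that overlaps that of the 5. The 5 genes followed each other more closely than they followed Gnrh1. Their 10 pairs had r from 0.88 (Tnrc18 with Hic2, rho 0.75) to 0.97 (Bahcc1 with Bcor, rho 0.97), and from 0.59 (Tnrc18 with Hic2) to 0.94 (Bahcc1 with Bcor) without the 2 pools farthest from the median of the first gene. These values describe libraries that share depth and preparation, were computed on genes chosen for this behaviour, and carry no p. The 4 early pools are too few for a correlation. For the immunoprecipitates, values of r over both sets of numbers are given only in the next paragraph.

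Genes whose levels ran most nearly parallel to each member over the 13 immunoprecipitates were found among 10533 genes that averaged at least 5 CPM. For Bahcc1 these were Dolk (r = 0.94), Fmnl2 (0.93) and Gse1 (0.92), for Tnrc18 Baz2b (0.94), Zfp362 (0.94) and Ikzf4 (0.94), and for Bcor Fam53c, Jmjd1c and Prr12 (0.96 each, after rounding). Hic2 ran closest to Sox12 (0.95), Zfp362 (0.94) and Zfp704 (0.94), and Nup98 to Dnmt3a (0.96), Axin1 (0.96) and Sox12 (0.95). Several of these were themselves high in the pull-down, with log2 differences between fractions of 4.65 for Gse1, 4.47 for Prr12 and 3.27 for Jmjd1c. Others were not, with 0.30 for Dolk and 0.45 for Fam53c. By the same r, members ranked from 5 (Tnrc18 for Bahcc1) to 972 (Bahcc1 for Nup98) in each other's likeness. Gnrh1 had r of 0.20 with Bahcc1 and -0.52 with Nup98 over the same libraries, values that mix both sets of numbers.

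**Figure D3:**
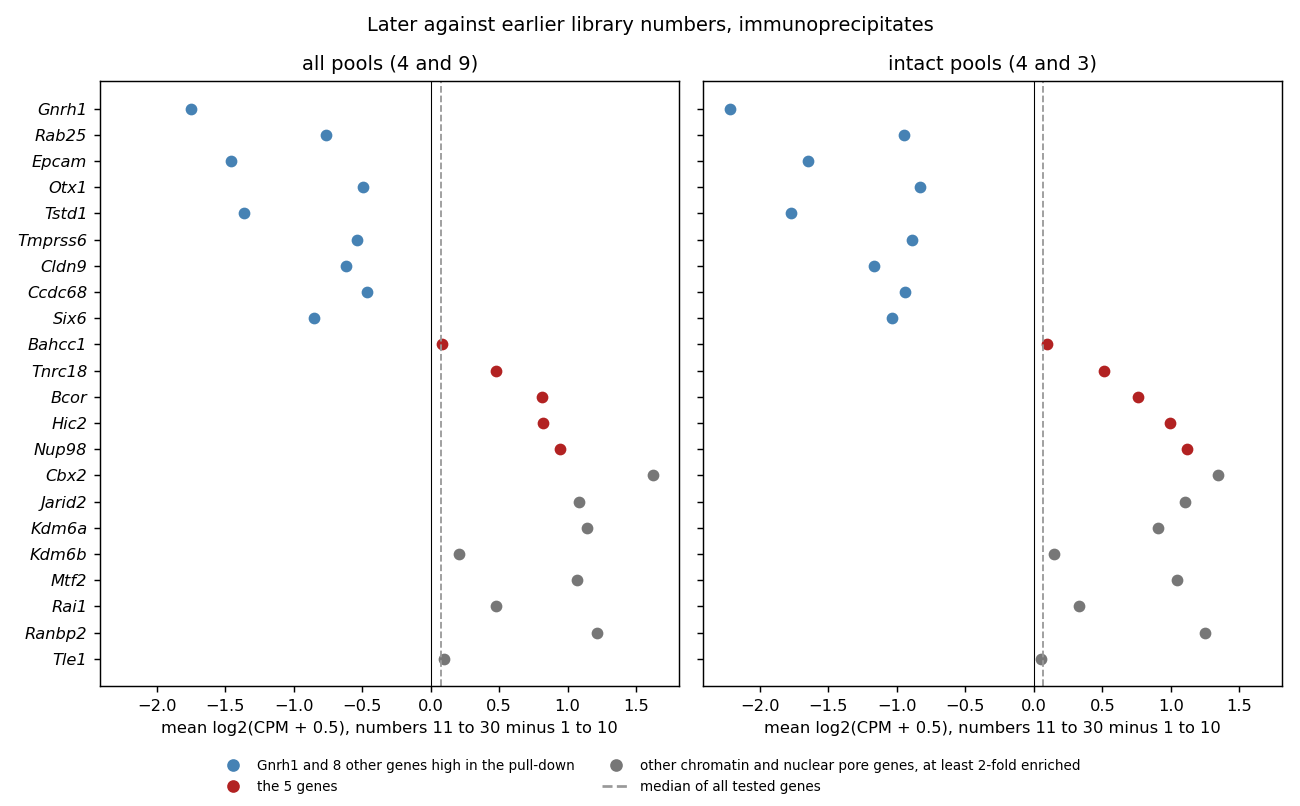
Mean log2(CPM + 0.5) of the immunoprecipitates numbered 11 to 30 minus those numbered 1 to 10, for all pools (left, 9 and 4) and intact pools (right, 3 and 4), with Gnrh1 and 8 other genes high in the pull-down in blue, the 5 genes in red, 8 other chromatin and nuclear pore genes in grey and the median of all tested genes as a dashed line. Blue points all lie left of 0, and red and grey points right of it.

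Other genes of the same machinery were divided between higher and lower in the pull-down. Over 7 lists of chromatin, corepressor and nuclear pore genes without the 5 members, 37 of 139 were called higher in the immunoprecipitate and 36 lower, with a median log2 difference of -0.03 (all genes tested: 21.3% higher, 21.6% lower, median -0.06). Of the 139, 9 (6.47%) were both called and at least 2-fold higher, beside 3.81% of all genes. Rai1, a nucleosome-binding transcriptional regulator listed with the BAH domain genes, was the highest (862 CPM in the immunoprecipitate and 53.2 in the supernatant, log2 3.95 ± 0.16, edgeR adjusted p 1.0e-14). It was followed by Kdm6b, a demethylase of H3K27 (log2 3.46 ± 0.21).

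By list, histone readers and BAH domain genes had 2 higher and 6 lower of 15 (median log2 -0.15), with Mta1 of the NuRD complex lowest among those named (-0.88 ± 0.11). The partners of BCOR had 3 higher and 3 lower of 12 (median -0.05). Among them Pcgf1, the ring finger protein that binds BCOR, was at 0.60 ± 0.11, and Bcl6, the repressor from which BCOR takes its name, was lower in the immunoprecipitate (-0.98 ± 0.17). Other subunits of Polycomb repressive complex 1 had 4 and 4 of 17 (median 0.08), led by the chromodomain protein Cbx2 (2.50 ± 0.28). Polycomb repressive complex 2 and the H3K27 demethylases had 7 and 5 of 14 (median 0.29), 50% and 35.7% of the list, with the accessory subunits Jarid2 (2.02 ± 0.16) and Mtf2 (2.01 ± 0.15) higher and the core subunit Suz12 lower (-0.68 ± 0.16).

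Corepressor complexes had 9 higher and 11 lower of 35 (median -0.11). The Groucho relative Tle1 (1.01 ± 0.08) and the nuclear receptor corepressor Ncor1 (0.84 ± 0.11) were higher, and Tle3 was lower (-0.84 ± 0.14). Repressors of the BTB zinc finger class had 2 and 5 of 18 (median -0.06), with Zbtb5 highest (0.91 ± 0.16) and Zbtb16 lowest (-1.21 ± 0.36) among those named. Nucleoporins had 10 and 2 of 28 (35.7% and 7.14%, median 0.09). Ranbp2, the giant nucleoporin of the cytoplasmic filaments, was the only one at least 2-fold higher (2.50 ± 0.18), and Nup93 of the inner ring followed at 0.52 ± 0.12. All 5 members lay above the medians of these lists by construction.

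**Figure D4:**
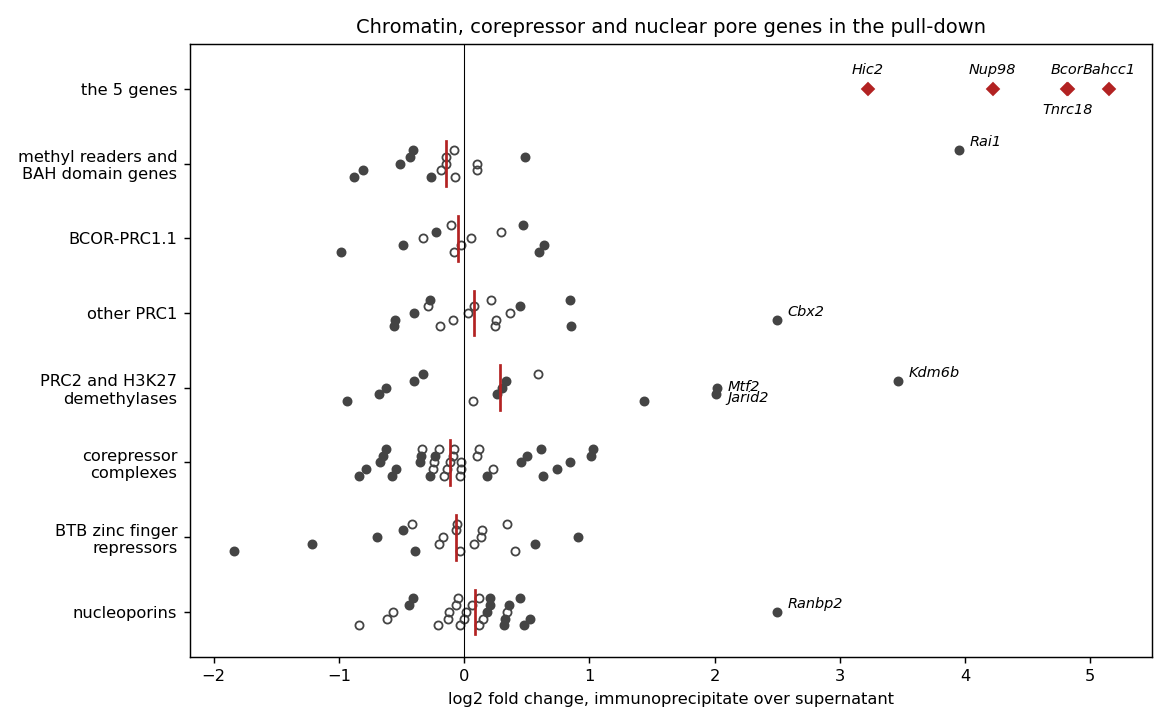
Log2 fold change of immunoprecipitate over supernatant for the 5 genes (red diamonds) and for the tested genes of 7 lists, with filled points for genes called at an adjusted p under 0.05, open points for the rest, red bars for list medians and names for genes at 2 or above. List medians lie between -0.15 and 0.29, and Rai1, Kdm6b, Cbx2, Ranbp2, Jarid2 and Mtf2 stand out to the right.

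Of the 9 listed genes that were at least 2-fold higher, 8 are described by library number, and each value was above 0, as for the 5 members. They were kept for their enrichment over all pools, most of which have later numbers, so nothing is read from the shared sign. Later minus early pools, on the log2(CPM + 0.5) scale, gave 1.62 for Cbx2, 1.21 for Ranbp2, 1.14 for Kdm6a, 1.08 for Jarid2, 1.07 for Mtf2, 0.47 for Rai1, 0.21 for Kdm6b and 0.10 for Tle1. Kdm6b and Tle1 lay near the middle of all genes, at percentiles 59.9 and 51.9. All later pools were higher for Jarid2, Mtf2 and Ranbp2, as they were for 2.94% of all genes. The median over all 139 listed genes was 0.21, beside 0.07 over all genes. In the supernatants the later minus early differences of the 5 members ran from -0.22 for Hic2 to 0.35 for Bahcc1, and their early and later ranges overlapped.

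Gonadectomy was compared within each sex in the immunoprecipitates, which asked whether removal of gonadal steroids changed the ribosome-bound level. None of the 5 genes passed in either sex (edgeR quasi-likelihood test, Benjamini-Hochberg over 16160 genes, and 0% of all genes called). In females the log2 differences ran from 0.17 ± 0.33 (SE) for Bahcc1 to 0.43 ± 0.40 for Bcor. In males they ran from 0.11 ± 0.31 for Bahcc1 to 0.67 ± 0.37 for Bcor, whose 95% interval was -0.13 to 1.46 (edgeR adjusted p 0.568, the lowest of the 20 comparisons of members in this fraction). The direction of some of these differences changed with the library numbers used. All 10 member differences were above 0 over all pools, and 5 of the 10 fell below 0 within the pools numbered 11 to 30. These were Bahcc1 (-0.09), Tnrc18 (-0.09), Hic2 (-0.12) and Nup98 (-0.04) in males and Nup98 (-0.09) in females, where the intact group is then 1 pool. The 5 that stayed above 0 ran from 0.15 for Bcor in males to 0.63 for Bahcc1 in females. With a term for the numbering, 3 of the 10 fell below 0, all in females (Bcor -0.15, Hic2 -0.23, Nup98 -0.47). Gnrh1 differed by -1.01 ± 0.62 in females and -0.78 ± 0.59 in males over all pools, and its direction turned too within the later numbers. There it stood at 3174 CPM in the intact female pool and 5096 to 8774 CPM in gonadectomized females, and at 4527 and 4616 CPM in intact males and 4426 to 8743 CPM in gonadectomized males.

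Males and females were compared among intact and among gonadectomized mice in the same fraction. No member passed (0.0248% of all genes called among intact and 0.0186% among gonadectomized mice). In intact mice the log2 differences, male minus female, were 0.58 ± 0.31 for Bahcc1, 0.66 ± 0.28 for Tnrc18, 0.35 ± 0.38 for Bcor, 0.79 ± 0.42 for Hic2 and 0.66 ± 0.37 for Nup98, each with an edgeR adjusted p of 0.991. Within the pools numbered 1 to 10, with 2 of each sex, Bcor turned to -0.48 (229 and 246 CPM in females, 157 and 187 CPM in males) and Nup98 to -0.01, and the other 3 were between 0.12 and 0.24. In gonadectomized mice they were 0.52 ± 0.33, 0.48 ± 0.30, 0.59 ± 0.40, 0.77 ± 0.44 and 0.91 ± 0.39 in the same order, and these male pools held 5 mice and the female ones 7. The part of pool size was not tested. Nup98 did not overlap between gonadectomized males (208 to 331 CPM) and females (89.9 to 182 CPM), with an edgeR adjusted p of 0.579, and 11.5% of all genes were separated in that direction. Over all 20 comparisons, 2 had an unadjusted p under 0.05, and over all genes and the 4 contrasts edgeR called 7, with 4152 at an unadjusted p under 0.05. DESeq2 called 78 genes and no member. No gene of the 7 chromatin, corepressor and nuclear pore lists was called by edgeR for gonadectomy or sex in either fraction, beside 7 and 16 calls over all genes and 4 contrasts.

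In the supernatants, which hold the RNA left behind, 0 of 20 member comparisons passed. The share of all genes called was 0.0122% for gonadectomy in females, 0% in males, and 0.0428% for sex in both intact and gonadectomized mice. The lowest adjusted p was 0.173 (edgeR), for Hic2 in gonadectomized males against females (log2 -0.42 ± 0.17, 4.69 to 6.28 CPM against 7.25 to 7.46 CPM). Bahcc1 (7.09 to 11.7 against 13.2 to 21.9 CPM) and Bcor (8.93 to 9.95 against 12.6 to 14.9 CPM) did not overlap there either. Lower values in males without overlap were found for 12.2% of all genes in that comparison. Hic2 was also lower without overlap in gonadectomized than intact males (4.69 to 6.28 against 6.75 to 7.93 CPM, log2 -0.41 ± 0.16, and 3.76% of all genes separated in that direction). At an unadjusted p under 0.05 there were 4 member comparisons and, over the 4 contrasts, 5694 gene results, with 16 called by edgeR and 1280 by DESeq2. DESeq2 gave no adjusted p for Bahcc1 in any of the 4 contrasts, and none of the 16 other member comparisons passed it.

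The direction of 4 of the 5 genes turned on intact female replicate 2 in the supernatant difference between intact males and females. With it, Bahcc1 differed by -1.07 ± 0.45 and Tnrc18 by -0.81 ± 0.33 on the log2 scale (male minus female, edgeR adjusted p 0.861 for both), and Gnrh1 by -2.22 ± 0.84. Without it, 4 of the 5 turned in direction, with Bahcc1 at 0.23, Tnrc18 at 0.01, Bcor at 0.26 (-0.40 with it) and Nup98 at 0.21 (-0.09 with it), while Hic2 went from -0.32 to -0.16. The supernatant difference of gonadectomized minus intact females turned for 3 of the 5, from -0.39 to 0.91 for Bahcc1, -0.43 to 0.40 for Tnrc18 and -0.21 to 0.09 for Nup98. Within the pools numbered 11 to 30, where this pool is the only one of intact females, Bahcc1 (-2.38, adjusted p 0.0226), Bcor (-1.42, 0.0207) and Tnrc18 (-1.96, 0.00997) passed the edgeR test, which there assumes that the lone pool varies like the other groups. In the supernatants the 3 genes also followed Gnrh1 most closely, with r of 0.90 for Bahcc1, 0.83 for Tnrc18 and 0.75 for Bcor over the 12 others (rho 0.66, 0.66 and 0.48), beside 0.37 for Hic2 and 0.28 for Nup98. Without the 2 farthest of these 12, r was 0.73, 0.54 and 0.39 for the first 3, 0.41 for Hic2 and 0.49 for Nup98. Bcor then no longer stood above Hic2 and Nup98. These supernatant values of r mix both sets of library numbers.

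Enrichment itself was compared between conditions, as the immunoprecipitate minus supernatant difference. Enrichment entered the choice of the 5 genes, and its gonadectomy comparisons in part set early against later library numbers. For females, Bahcc1 had log2 values of 4.07 ± 0.51 (SE) when intact and 4.67 ± 0.53 after gonadectomy. For males they were 5.74 ± 0.48 and 6.11 ± 0.57. Over all pools the same order of conditions held for each of the other 4, from 3.78 to 5.59 for Tnrc18, 4.15 to 5.64 for Bcor, 2.27 to 4.20 for Hic2 and 3.56 to 4.92 for Nup98. Without intact female replicate 2 the order was lost for 3 of the 5, as gonadectomized minus intact females went from 0.60 to -0.96 for Bahcc1, 0.87 to -0.04 for Tnrc18 and 0.40 to -0.37 for Bcor. It remained above 0 for Hic2 (0.64) and Nup98 (0.33). Within the pools numbered 11 to 30, gonadectomized minus intact males was -0.21 for Tnrc18, and with a term for the numbering gonadectomized minus intact females was -0.02 for Nup98. None of the 20 differences in enrichment between conditions passed (edgeR interaction, lowest adjusted p 0.644). Of all genes, 0% were called for gonadectomy in either sex or for sex in gonadectomized mice, and 0.00598% for sex in intact mice. The largest was the difference between intact males and females for Bahcc1, at 1.68 ± 0.61 (edgeR adjusted p 0.963), and it was 0.13 without intact female replicate 2. For Tnrc18 it went from 1.499 ± 0.48 to 0.60, for Bcor from 0.79 ± 0.51 to 0.02, for Hic2 from 1.14 ± 0.48 to 1.03 and for Nup98 from 0.78 ± 0.45 to 0.61. Within the pools numbered 1 to 10 it turned to -0.18 for Bahcc1, -0.88 for Bcor and -0.16 for Nup98. Of the 20, 5 had an unadjusted p under 0.05, beside 4232 gene results over the 4 contrasts, 1 called by edgeR and 47, none a member, by DESeq2.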

How the data were processed

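The authors deposited 1 table of estimated counts per gene for 26 libraries. The submitters' processing notes list Cuffdiff 2.1.1, Cufflinks, Bowtie2 2.1.0, TopHat2 2.0.9 and FastQC, with the mouse build mm10. How multiply mapped reads were treated, and with which annotation, is not given in the sources used here. A SMART-Seq kit for low input made the cDNA, per the labels' protocols. Estimated counts (1.46% of values were not whole) were rounded. Total counts ran from 27217253 to 56668582, and precision given by counts covers counting error only.

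Tests used edgeR 4.0.16 in R 4.3.3, with TMM factors, filterByExpr (minimum count 10, minimum total 15), the two-sided quasi-likelihood F-test and Benjamini-Hochberg adjustment over all genes of a fit (16713 over both fractions, 16160 in immunoprecipitates, 16360 in supernatants), called under 0.05. The fits were also run on simulated counts. Those held no early and later sets and no pool that stood apart, so that run says nothing of these features. CPM use TMM effective library sizes. SE is the log2 difference divided by the square root of F, and 95% intervals use the same fit. Differences between library numbers and correlations used log2(CPM + 0.5). Replicates are separate pools of mice. The immunoprecipitate and supernatant of a pool come from the same mice, so the pool was tried as a replicate block. Deviations of the paired libraries from their group means correlated by 0.02 to 0.25 in the 13 pools. Replicate numbers do not tie pools across conditions. DESeq2 1.42.0, DESeq2 size factors, no filter, a term for library number, fits within the numbers, fits on the groups compared, and leaving out each library were alternatives, and leaving out intact female replicate 2 as a pool was added after seeing the data.

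The 5 genes and the gene lists were chosen with earlier results of these data known. Of each chromatin, corepressor or nuclear pore list, up to 3 called genes per direction averaging at least 5 CPM in a fraction could be named, by size of the log2 difference between fractions, with those at least 2-fold higher. One gene that this rule names is not reported here. Kdm6a was named by that last count, after its values were seen. For each member the 3 genes with the highest r over the 13 immunoprecipitates were named, without predicted genes. Promoters are from RefSeq (GRCm38.p6), where all 5 genes were matched, and gene positions from GENCODE M21.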

Additional observations from a re-analysis of the deposited data

How the results depend on the processing

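For each of the 5 genes the log2 difference between fractions stayed within 1 SD of the reported value under the 33 alternatives compared. The fit with a term for library number was not among them. Apart from leaving out single libraries, the difference ran for example from 4.84 to 5.54 for Bahcc1 and from 2.47 to 3.36 for Hic2. When single libraries were left out, it ran from 5.05 to 5.47 and from 3.09 to 3.30. The paired fit with the pool as a replicate block gave 5.25 for Bahcc1, 4.86 for Tnrc18, 4.79 for Bcor, 3.13 for Hic2 and 4.17 for Nup98, with 7718 genes called in place of 7167, and it changed no call of a member. In libraries 11 to 30 alone, 4606 genes were called between fractions, with fewer samples. There 3 members passed a supernatant comparison, all for sex in intact mice, where the intact female group is 1 pool. Under all other alternatives run, 0 members passed a comparison of gonadectomy, sex or their effect on enrichment, where DESeq2 gave Bahcc1 no adjusted p in its 4 supernatant comparisons. Over all genes and 4 contrasts, calls were less stable: leaving out gonadectomized female supernatant replicate 2 took the supernatant count from 16 to 3405, leaving out intact female immunoprecipitate replicate 2 took the interaction count from 1 to 391 and the immunoprecipitate count from 7 to 16, and a term for library number took the supernatant count to 1089. DESeq2 called 78 in immunoprecipitates, 1280 in supernatants and 47 interactions, leaving out intact female replicate 2 as a pool gave 115 interactions, and libraries 11 to 30 alone gave 287 in supernatants. The cause was not tested. The later minus early difference of Bahcc1 ran from -0.01 to 0.21 when single libraries were left out, and that of Nup98 from 0.86 to 1.09. The smallest count of a member in a library was 201, for Hic2. The biological coefficient of variation common to all genes was 0.56 in immunoprecipitates and 0.181 in supernatants, and with 3 or 4 pools a group it limits what these comparisons can resolve.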
